A study of Danio rerio with 2 samples.

Results

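The 7 genes of the zebrafish mitochondrial genome that encode subunits of respiratory complex I were examined in RNA that co-precipitated with Flag-tagged Cpeb1b. They were taken from the deposited table by Ensembl gene name in any letter case (mt-nd1, mt-nd2, mt-nd3, mt-nd4, mt-nd4l, mt-nd5 and mt-nd6). All 7 were found, each on 1 row, among 33737 genes in all. Complex I members were present at high levels, and mt-nd6, at 530 RPKM, was higher than all 12 of the other mitochondrial protein genes. The 6 complex I genes coded on the heavy strand lay between 123 and 194 RPKM.

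The series holds a single group of 2 samples, named as biological replicates. Wild-type zebrafish embryos that had received Flag-cpeb1b mRNA by injection were collected at 16 h post-fertilization (hpf), and RNA bound to anti-FLAG beads was sequenced (RNA immunoprecipitation sequencing, RIP-seq). The tagged protein was thus made from injected mRNA, in addition to any that the embryos make themselves, and lysates were of whole embryos, so tissues are not separated. How many embryos went into a lysate is not given in the sources used here. The submitters label the RNA as poly(A) RNA. An input, a control antibody or uninjected embryos were not analysed here, and a level in the precipitate is therefore not an enrichment over background. The authors deposited 1 mean RPKM per gene (reads scaled to gene length and to library size), so no value has a replicate SD and no test between samples could be made. Of 12 marker symbols for the whole somite-stage embryo, 10 had a row (not tbxta and ta), and all 10 were at 1 RPKM or more. Among all distinct symbols, 49% reached that level. The 10 markers ran from 5.99 RPKM for the segmentation clock gene her7 to 319 RPKM for the epidermal keratin gene krt4.

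Complex I (NADH:ubiquinone oxidoreductase) takes electrons from NADH, passes them to ubiquinone and pumps protons across the inner mitochondrial membrane. Its membrane arm is built around the mitochondrially encoded subunits, while the subunits of the arm that projects into the matrix are encoded in the nucleus, made in the cytosol and imported. In vertebrates the strands of the circular mitochondrial genome are called heavy and light and are transcribed as long precursors, from which mRNAs are released, in large part by excision of the tRNAs that lie between them. mt-nd6 is the only protein gene of the light strand, and the other protein genes are all of the heavy strand. In human cells ND4L and ND4, and likewise ATP8 and ATP6, share an mRNA, and the ND6 mRNA is known for a short or absent poly(A) tail. Cpeb proteins bind cytoplasmic mRNAs with a cytoplasmic polyadenylation element, whereas mitochondrial mRNAs are made and translated inside the organelle.

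Depth was read from the table. Low values that recur on several rows were read as the worth of 1 read divided by a gene length in whole bases. A pair of step sizes accounted for 135 of the 171 such rows (78.9%). Under the assumption of an unweighted average over 2 libraries, the RPKM values had been divided by totals of 6576775 and 6551363 reads. An RPKM of 1 then stands for 13.1 reads per kilobase over both libraries together. Gene lengths in the files' build (Zv9) were not used here, so 95% intervals are given for a gene model of 100 bases, which is shorter than any of the 13 mitochondrial protein genes and makes the intervals wider than those of the full genes. They cover counting error only, and the spread between replicates is not part of them.

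All 7 complex I genes were at or above the detection threshold of 1 RPKM, which 38.6% of all genes reached. All 7 were also at or above 100 RPKM, a level that 0.797% of all genes reached. The median of the 7 was 133 RPKM, against 0.507 RPKM over all rows and 3.22 RPKM over detected symbols. The lowest member, mt-nd4l, ranked 215th of 33737 rows, and mt-nd6 ranked 49th. Together the 7 held 0.138% of the summed RPKM of the table, a share that followed the rows in the total. It was 0.685% without the 10 highest rows, which thus held most of the total, and 0.405% over rows with a symbol. A share of summed RPKM is not a share of reads. In whole-embryo lysates, the number of cells that hold an RNA and its amount per cell cannot be told apart.

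mt-nd6 (ENSDARG00000063922) encodes a hydrophobic subunit of the membrane arm and had 530 RPKM (interval 491 to 571). This level stood for about 6963 reads per kilobase over both libraries. Of the 48 rows above it, 30 had no symbol and 18 had one. The level made mt-nd6 alone 37.4% of the summed RPKM of the 7 complex I genes.

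Among the heavy-strand members, mt-nd5 (ENSDARG00000063921) encodes the antiporter-like subunit at the far end of the membrane arm and had 194 RPKM (interval 171 to 220). mt-nd1 (ENSDARG00000063895) encodes the subunit at the junction of both arms, next to the ubiquinone pocket, and had 183 RPKM (interval 160 to 207). mt-nd4 (ENSDARG00000063917) had 133 RPKM (interval 114 to 154). Of the heavy-strand complex I genes, mt-nd5 and mt-nd1 were the highest and stood apart from the remaining 4, which include mt-nd4.

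mt-nd2 (ENSDARG00000063899), which like mt-nd4 and mt-nd5 encodes an antiporter-like subunit, had 131 RPKM (interval 112 to 152). mt-nd3 (ENSDARG00000063914), whose product has a loop that moves as the complex switches between active and resting forms, had 124 RPKM (interval 106 to 145). mt-nd4l (ENSDARG00000063916), which encodes a small membrane subunit, had 123 RPKM (interval 104 to 143). The genes for the 3 antiporter-like subunits were not at a common level, since mt-nd5 was 1.46 times mt-nd4 (interval 1.20 to 1.79), while mt-nd2 lay next to mt-nd4.

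In order of level, mt-nd6 was 2.73 times mt-nd5 (interval 2.36 to 3.16). mt-nd5 was 1.06 times mt-nd1, with an interval of 0.887 to 1.27 for 100 bases and of 1.002 to 1.12 for 1000 bases, so whether this pair differed beyond counting error depended on the length assumed. mt-nd1 was 1.38 times mt-nd4 (interval 1.13 to 1.69). Below it, mt-nd4, mt-nd2, mt-nd3 and mt-nd4l followed each other at ratios of 1.01, 1.05 and 1.01, each with an interval that included 1 even for 1000 bases. By neighbouring pairs and intervals for 100 bases, the 7 levels thus fell into mt-nd6, then mt-nd5 with mt-nd1, then mt-nd4, mt-nd2, mt-nd3 and mt-nd4l.

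Set against the heavy-strand members, mt-nd6 was 4.02 times their median of 132 RPKM (interval 3.40 to 4.78, with the median treated as the level of 1 gene). The ratio ran from 2.73 against mt-nd5 to 4.33 against mt-nd4l (interval 3.64 to 5.16), and mt-nd6 was higher than each of the 6. The heavy-strand members differed among themselves by at most 1.58 times. The use of strand in the counting is not given in the sources used here. Without it, reads of the mt-nd6 mRNA cannot be told apart from reads of heavy-strand precursor across the same stretch in the other direction. The same holds for the heavy-strand genes and light-strand precursor. The value of mt-nd6, and that of each heavy-strand gene, is thus that of the locus.

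**Figure D1:**
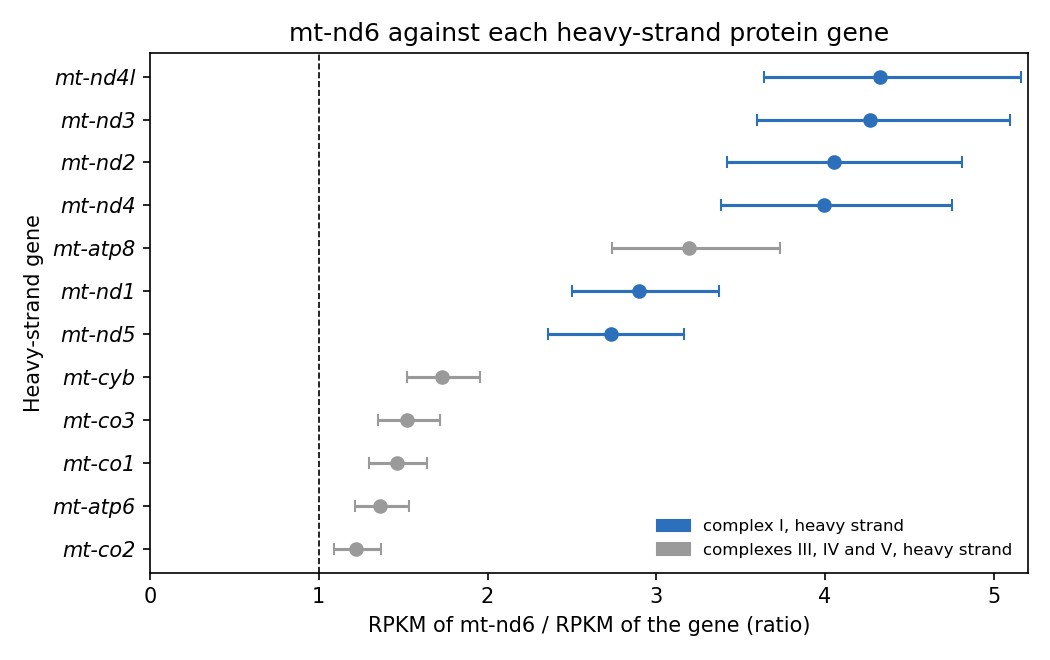
Ratio of the RPKM of mt-nd6 to that of each heavy-strand protein gene (x axis, linear), with complex I genes in blue and genes of complexes III, IV and V in grey. Bars are 95% counting intervals for gene models of 100 bases; all ratios lie above 1, from 1.22 for mt-co2 to 4.33 for mt-nd4l.

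The other mitochondrial protein genes stood between mt-nd6 and the heavy-strand complex I genes, with mt-atp8 as the exception. mt-co2, a cytochrome c oxidase (complex IV) gene, had 434 RPKM. mt-atp6, an ATP synthase (complex V) gene, had 388 RPKM. The remaining complex IV genes mt-co1 and mt-co3 had 363 and 348 RPKM.

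mt-cyb, the cytochrome b gene of complex III, had 307 RPKM, and mt-atp8, the second ATP synthase gene, had 166 RPKM. Of these 6 genes 5 lay above every heavy-strand complex I gene and none lay above mt-nd6. mt-atp8 was the lowest of them and lay below mt-nd5 and mt-nd1. Over all 36 pairs of a heavy-strand complex I gene with one of these genes, the complex I gene was the lower in 34.

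The median of the 7 complex I genes (133 RPKM) was 0.374 times that of the 6 other genes (356 RPKM). For means, on which mt-nd6 weighs more, the ratio was 0.606, from 203 RPKM for complex I and 335 RPKM for the other genes. Without mt-nd6 the ratio of medians was 0.371. mt-nd6 was closest in level to mt-co2, which it exceeded 1.22 times (interval 1.09 to 1.37). The complex I genes held 41.4% of the summed RPKM of all 13 genes, of which the heavy-strand members held 25.9% and mt-nd6 15.5%.

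Gene order in the mitochondrial genome, taken from a RefSeq gene table (assembly GRCz12tu), placed the heavy-strand complex I genes in 2 runs. mt-nd1 and mt-nd2 lie at the start of the protein genes, separated by tRNA genes, and mt-nd3, mt-nd4l, mt-nd4 and mt-nd5 form the second run, after mt-co3. At its start, the level of mt-nd3 was 0.357 times that of mt-co3 (interval 0.296 to 0.427), with a tRNA gene between them. Within the run, mt-nd4l overlaps mt-nd4 in that table. mt-nd4 was 1.08 times mt-nd4l, with an interval of 0.867 to 1.35 for 100 bases and of 1.01 to 1.16 for 1000 bases, so these overlapping genes differed by little or not at all beyond counting error.

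The other overlapping pair whose human counterparts share an mRNA differed more in RPKM, mt-atp6 being 2.34 times mt-atp8 (interval 1.99 to 2.75). The interval covers counting error only. An effect of gene length or of the overlap on these RPKM values was not tested. mt-nd6 also overlaps mt-nd5 in the table, from the other strand, and is followed by a tRNA gene and then by mt-cyb. mt-nd6 was thus flanked by mt-nd5 at 194 RPKM and mt-cyb at 307 RPKM, and was higher than both. The treatment of reads in overlaps, and of reads that also align to other parts of the genome, is not given in the sources used here. The RefSeq table lists 13 protein, 2 rRNA and 22 tRNA genes on this genome. The 13 rows of the deposited table whose symbol begins with mt- were all protein genes, and mitochondrial rRNAs and tRNAs, including those beside the complex I genes, were not analysed here, since any rows they have among the identifiers without a symbol were not matched.

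**Figure D2:**
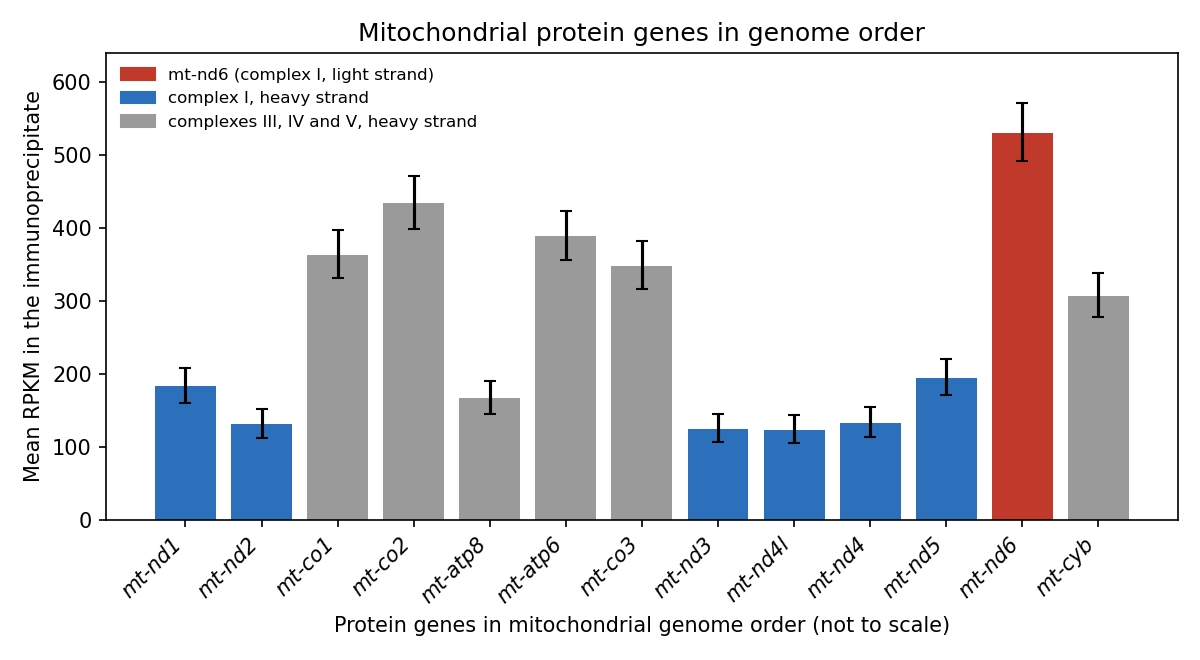
Mean RPKM (y axis, linear) of the 13 mitochondrial protein genes, placed in their order along the mitochondrial genome without scale. Bars in blue are heavy-strand complex I genes, the red bar is mt-nd6 at 530 RPKM and grey bars are complexes III, IV and V; error bars are 95% counting intervals for gene models of 100 bases, and mt-nd3, mt-nd4l and mt-nd4 sit side by side at 123 to 133 RPKM.

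Nuclear genes for the same complex were far lower. Of 41 listed nuclear subunit symbols 36 had a row, and 34 of the 36 were detected, where 49% of all distinct symbols (9786 of 19976) were. These 34 had a median of 4.80 RPKM. The median of the mitochondrial members was 27.7 times that value, or 13.6 times with a threshold of 5 RPKM, and none of the 36 reached mt-nd4l. The closest was ndufa6, which encodes an accessory subunit of the LYR family, at 67.2 RPKM; mt-nd4l was 1.83 times as high.

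All 7 nuclear genes for core subunits of the matrix arm were detected, against 49% of all distinct symbols, and their median was 3.43 RPKM. ndufs7, whose product lies at the ubiquinone site, had 4.99 RPKM. ndufv1 and ndufv2, which encode the NADH-binding subunit and its iron-sulfur partner, had 2.87 and 4.61 RPKM. Of the other core genes, ndufs3, ndufs8 and ndufs1 had 3.43, 2.85 and 1.88 RPKM. All 7 core genes lay between 1.88 and 4.99 RPKM, below every mitochondrial member.

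Accessory subunits, which surround the core, had 27 of 29 genes (93.1%) detected, against 49% of all distinct symbols, and a wider range. After ndufa6, the highest were ndufs5 at 52.6 RPKM and ndufb7 at 25.0 RPKM, both for subunits on the intermembrane-space side. The lowest were ndufs6 at 1.96 RPKM, ndufv3 at 0.328 RPKM and ndufa9b at 0.102 RPKM. Assembly factors, which build the complex without staying in it, had 11 of 14 (78.6%) detected, against the same 49%. The median of these 11 was 1.47 RPKM, led by ndufaf6 at 3.57 RPKM, acad9 at 3.33 RPKM and timmdc1 at 2.56 RPKM.

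Nuclear genes that act on mitochondrial DNA and RNA were also below every mitochondrial member. Medians of detected genes were 2.25 RPKM for transcription and replication, 2.83 RPKM for RNA processing and 2.46 RPKM for translation. The median over all detected symbols was 3.22 RPKM. Of 12 measured genes for transcription and replication of the mitochondrial genome 7 (58.3%) were detected, a share near the 49% of all symbols. They were led by tfam, which packages the genome and starts its transcription, at 13.0 RPKM, then primpol at 3.43 RPKM and mterf4 at 2.30 RPKM. Genes for processing and stability of mitochondrial RNA had 17 of 19 (89.5%) detected, against that 49%. Among them, slirp and lrpprc, whose products together stabilise mitochondrial mRNAs in mammals, had 36.0 and 5.25 RPKM, and the pseudouridine synthase gene rpusd4 had 4.05 RPKM. Genes for mitochondrial translation and membrane insertion had 8 of 14 (57.1%) detected, also near that share, led by letm1 at 6.04 RPKM, the initiation factor gene mtif3 at 4.15 RPKM and the insertase gene oxa1l at 3.34 RPKM.

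**Figure D3:**
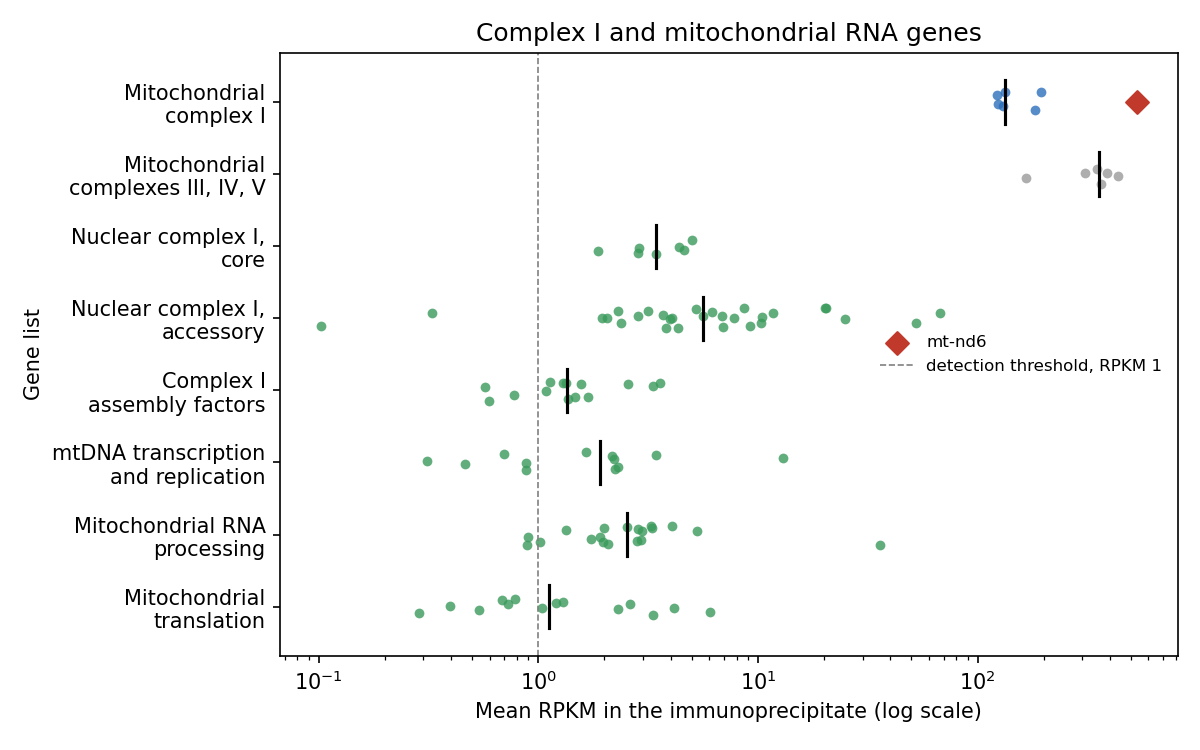
Mean RPKM (x axis, log scale) of each gene in each gene list, 1 row per list, with the median over all measured genes of a list as a black bar and the detection threshold of 1 RPKM as a dashed line; vertical scatter within a row carries no value. The mitochondrial genes lie above 100 RPKM, with mt-nd6 (red) highest, and the nuclear complex I genes lie at 67.2 RPKM or below.

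With 1 value per gene there is no pattern across samples, and likeness to mt-nd6 was read as closeness of level. The next symbols above it were u5, a spliceosomal RNA, at 575 RPKM and jakmip2 at 580 RPKM. The next below were si:dkeyp-104f11.4 at 525 RPKM and the poly(A)-binding protein gene pabpc1a at 444 RPKM. A shared level in 1 mean column is the only likeness measured here.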

How the data were processed

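RIP-seq of 2 samples was analysed. The authors deposited RPKM values, averaged over the replicates as the name of the table says, with no header. Build Zv9 is named in the submitters' processing notes, beside the aligners TopHat2 2.1.1 and Bowtie, the trimmers Trimmomatic 0.36 and cutadapt 1.13, and bedtools 2.16.2, MACS2 2.0.10 and FastQC. No role for each tool, annotation release, gene length, use of strand or handling of multiple alignments is stated in the sources used here. Symbols came from a gene name table, which matched 21939 of 33737 identifiers (65.0%), and lists were matched without regard to letter case. Where several rows shared a symbol, the highest of them gave the level of that symbol. Detected means an RPKM of 1 or more. Depth came from values of 0.4 to 2 RPKM shared by at least 3 rows, as steps giving whole lengths within 0.002 bases. The search was tested on 1 simulated mean of libraries with 5100000 and 5300000 reads, and its largest error was 1.6e-05%. These totals lie further apart than those found in the data, so that error does not describe the real depths. Counting intervals are exact Poisson intervals for levels and exact conditional binomial intervals for ratios. The planned intervals from reads per gene needed gene lengths of the files' build and were replaced by intervals for 100 and 1000 bases. The members and lists were chosen with earlier results of these data known. Named were all mitochondrial protein genes, all nuclear core subunits, the 3 highest and 3 lowest accessory subunits, the 3 highest genes of the other lists, and the 2 symbols on either side of mt-nd6; a gene that this rule names is left out of the text. Python 3.11.15, pandas 2.3.3 and scipy 1.17.1 were used.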

Additional observations from a re-analysis of the deposited data

How the results depend on the processing

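mt-nd6 was the highest of the mitochondrial protein genes, so every alternative ratio had to exceed 1 and only its size could change. Against the 6 heavy-strand complex I genes, the ratio of mt-nd6 was 4.02 for their median and 3.58 for their mean. It was 3.36 without mt-nd3 and mt-nd4l, 2.81 against the median of all 12 heavy-strand genes and 2.73 against the highest of the 6. All 7 members were detected at each threshold from 0.1 to 100 RPKM, which had to be so because the lowest had 123 RPKM. Their centre was 175 RPKM as a geometric mean with a pseudocount of 0, 0.1 or 1 and 158 RPKM without the lowest member, against a median of 133 RPKM. Relative to the other mitochondrial protein genes the ratio of means was 0.606, against 0.374 for medians. Relative to nuclear subunit genes it was 13.6 at a threshold of 5 RPKM, against 27.7; the higher threshold keeps fewer and higher nuclear genes. The 7 held 0.685% of the RPKM total without the 10 highest rows and 0.405% of the total over rows with a symbol, against 0.138%.

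Among rows with a symbol, 99.9% lay below mt-nd6, 99.7% below mt-nd5, 99.6% below mt-nd1, and 99.5% below each of mt-nd4, mt-nd2, mt-nd3 and mt-nd4l. Among detected symbols the shares were 99.8% for mt-nd6, 99.3% for mt-nd5, 99.2% for mt-nd1, 98.9% for mt-nd4 and mt-nd2, and 98.8% for mt-nd3 and mt-nd4l. Of the 6 neighbouring pairs in order of level, 3 were separate by counting error for 1000 bases and 2 for 100 bases, a length chosen after seeing the data.

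Not run were pooled RPKM, effective lengths and shares of reads, which need gene lengths of the files' build, and the removal of a replicate, because the table holds the mean. No paired analysis was possible because there is only 1 group. Depth left counting errors of 3.79% to 7.88% for 100 bases, and replicate spread is unknown.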
